A study of Mus musculus with 12 samples.

Results

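Histone lysine demethylases take methyl groups off lysines of the histone tails and so erase marks that lysine methyltransferases write. The 10 genes described here, Kdm1a, Kdm2a, Kdm2b, Kdm3a, Kdm3b, Kdm4a, Kdm4b, Kdm4c, Kdm5b and Kdm6b, were found by symbol among the 24098 genes of the deposited expression table, each in 1 row. All 10 were above 1 FPKM (fragments scaled to transcript length and to the mapped fragments of the library) in all 12 libraries, the lowest value being 2.28 FPKM for Kdm4c in fibroblasts. They therefore belong to the 14178 kept genes, those with at least 1 FPKM in at least 1 library.

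Messenger RNA was measured in 12 libraries of mouse cells, 1 library per condition, to follow fibroblasts on their way to pluripotency. Mouse embryonic fibroblasts (MEFs) from mid-gestation embryos, which carried IRES-EGFP behind the stop codon of Oct4, were infected with pMXs retroviruses for the OSKM factors (Oct4, Sox2, Klf4, c-Myc) and were collected unsorted on days 0 (D0, not infected) and 3 (D3). Thy-1, a protein on the fibroblast surface, divided the day 6 cells into D6T- and D6T+ and the day 9 cells into D9T- and D9T+. SSEA-1, a carbohydrate epitope that pluripotent cells display, divided the day 12 cells into D12S+ and D12S- and the day 16 cells into D16S+ and D16S-. The end points were established induced pluripotent stem cells (iPSCs) and the mouse embryonic stem cell line ES-D3 (mESCs). D0 cells grew in DMEM with fetal bovine serum. Per the labels, reprogramming cells, iPSCs and mESCs grew in FF medium, which holds knockout serum replacement, leukemia inhibitory factor, bFGF, CHIR99021 and ascorbic acid, while the study's methods also name media without ascorbic acid, bFGF and CHIR99021 for each of them. Infection, medium and time change together between D0 and the libraries of days 3 to 16 and cannot be told apart. mESCs were not infected and differ from D0 in origin and medium. The Thy-1- and SSEA-1+ fractions are those the study follows as successful reprogramming, and the Thy-1+ and SSEA-1- fractions those it treats as unsuccessful.

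Kdm1a belongs to the flavin-dependent amine oxidases and acts on mono- and dimethylated H3K4, mostly inside the CoREST complex with histone deacetylases. The other 9 genes encode Jumonji C (JmjC) enzymes, which need iron, oxygen and 2-oxoglutarate, and whose activity in cells is helped by ascorbate. Kdm2a and Kdm2b act on H3K36 and bind unmethylated CpG-rich DNA, Kdm3a and Kdm3b act on mono- and dimethylated H3K9, Kdm4a, Kdm4b and Kdm4c act on trimethylated H3K9 and H3K36, Kdm5b acts on H3K4, and Kdm6b acts on H3K27. In pluripotent cells, H3K9 demethylases are known to keep pluripotency genes free of repressive methylation, and Kdm2b brings a Polycomb complex to CpG islands.

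The members differed in how their windows upstream of the start were built, and windows of the members with the widest range over the libraries, and of Kdm4a as the H3K9 enzyme with a level that ran the other way, are shown here. Each is the 250 bases before a RefSeq start, in the direction of the gene, with every CG dinucleotide in capitals. RefSeq windows (taken from a table for the GRCm38.p6 build and placed on NCBIM37, mm9, by an exact and single match) were found for 6 members, Kdm1a, Kdm2b, Kdm3a, Kdm4a, Kdm4c and Kdm5b. Kdm3a is shown at its outermost start (chr6:71582912-71583161, minus strand), Kdm4c at its outermost (chr4:73888151-73888400, plus strand) and innermost start (chr4:73897533-73897782), and Kdm2b at its outermost (chr5:123439109-123439358, minus strand) and innermost start (chr5:123350360-123350609). Kdm5b (chr1:136456505-136456754, plus strand) and Kdm4a (chr4:117852649-117852898, minus strand) have 1 window each.
Kdm3a outermost: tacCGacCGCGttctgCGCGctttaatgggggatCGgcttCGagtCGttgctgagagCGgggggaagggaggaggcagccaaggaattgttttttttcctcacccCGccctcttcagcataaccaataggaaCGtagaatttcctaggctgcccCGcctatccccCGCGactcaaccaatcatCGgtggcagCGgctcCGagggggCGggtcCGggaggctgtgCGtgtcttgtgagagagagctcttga
Kdm4c outermost: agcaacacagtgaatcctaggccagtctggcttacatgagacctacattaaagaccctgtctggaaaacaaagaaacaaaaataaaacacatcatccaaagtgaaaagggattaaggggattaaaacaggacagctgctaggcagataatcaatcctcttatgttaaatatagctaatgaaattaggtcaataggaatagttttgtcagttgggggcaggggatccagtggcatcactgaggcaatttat
Kdm4c innermost: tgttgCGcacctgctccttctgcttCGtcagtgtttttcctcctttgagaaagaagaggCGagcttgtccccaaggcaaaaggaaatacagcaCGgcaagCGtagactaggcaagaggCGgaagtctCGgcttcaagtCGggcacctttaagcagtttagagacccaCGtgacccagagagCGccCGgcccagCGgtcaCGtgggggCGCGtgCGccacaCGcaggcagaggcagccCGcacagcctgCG
Kdm2b outermost: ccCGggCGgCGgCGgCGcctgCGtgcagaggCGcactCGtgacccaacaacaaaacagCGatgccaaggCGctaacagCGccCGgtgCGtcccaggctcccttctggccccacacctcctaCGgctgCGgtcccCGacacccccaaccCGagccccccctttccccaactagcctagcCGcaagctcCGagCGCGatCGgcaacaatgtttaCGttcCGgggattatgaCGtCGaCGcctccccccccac
Kdm2b innermost: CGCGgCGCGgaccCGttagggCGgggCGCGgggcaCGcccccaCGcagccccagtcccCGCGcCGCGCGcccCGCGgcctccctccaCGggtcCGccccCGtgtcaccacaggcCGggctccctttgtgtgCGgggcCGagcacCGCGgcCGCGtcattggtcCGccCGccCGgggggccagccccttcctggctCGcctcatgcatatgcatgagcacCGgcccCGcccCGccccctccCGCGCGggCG
Kdm5b: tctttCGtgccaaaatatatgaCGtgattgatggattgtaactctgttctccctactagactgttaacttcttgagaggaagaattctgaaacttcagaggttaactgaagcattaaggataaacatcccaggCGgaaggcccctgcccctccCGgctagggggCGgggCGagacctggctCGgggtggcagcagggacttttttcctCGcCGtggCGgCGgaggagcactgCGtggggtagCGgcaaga
Kdm4a: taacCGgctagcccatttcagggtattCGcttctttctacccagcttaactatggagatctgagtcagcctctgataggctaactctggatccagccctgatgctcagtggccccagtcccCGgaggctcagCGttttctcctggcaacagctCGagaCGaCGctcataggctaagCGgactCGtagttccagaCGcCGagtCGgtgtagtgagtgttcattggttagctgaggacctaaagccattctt

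The Kdm2b windows held 27 CG at the outermost and 38 CG at the innermost start, and 98.1% of all 32851 RefSeq windows of this length held fewer than 38. The Kdm3a window at its outermost start held 20 CG, the innermost Kdm4c window 19, the Kdm1a window 21 (chr4:136158639-136158888, minus strand), Kdm5b 13 and Kdm4a 12, beside a median of 6 over all windows. The outermost Kdm4c window and the innermost Kdm3a window (chr6:71559134-71559383) held 0 CG, as 7.87% of all windows did. CACGTG is an E-box, the letters bound by Myc and related factors, and its own CG counts among the above. Letters were searched on both strands, only in the outermost and innermost windows given here. CACGTG stood 2 times in the innermost Kdm4c window and in no other window searched, beside 6.02% of all windows. The octamer ATGCAAAT, the letters bound by Oct4-type factors, was in none of the windows searched, beside 1.60% of all windows. These matches describe the letters in these windows and nothing about the factors.

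Several properties of the libraries bear on the levels. The summed FPKM of a library lay between 484968 (D16S+) and 648264 (D0), and its relative depth between 0.969 (D9T+) and 1.56 (D6T-) times that of D0, so no library was far shallower than the rest. The cells matched their labels: Thy1 was at 3.24 FPKM in D6T- against 477 in D6T+, and Nanog, a pluripotency factor, was at 0.0889 FPKM in D0 and 192 in D16S+. The summed level of 12 fibroblast markers was 9150 FPKM in D0, 791 in D16S- and 237 in D16S+, while that of 10 pluripotency markers was 3.37 FPKM in D0 (with Dppa3, Dppa4 and Tcl1 listed at 0), 148 in D16S- and 4924 in D16S+. In such bulk libraries fewer cells of a type and less RNA per cell cannot be told apart. Pou5f1, which encodes Oct4, was at 1.99 FPKM in D0 and 858 in D3, and this value includes reads of the retrovirus.

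With 1 library per condition there was no spread between replicates, and no difference was tested. The only error in the files is the interval that cuffdiff modelled around each FPKM, whose median half-width over the 120 member values was 95.9% of the FPKM, with a lower end of 0 for 41 of them. The intervals of every member overlapped in all 66 pairs of libraries, so the order of the levels below is an order of point values, and neighbours in it cannot be separated. Differences are given on the log2(FPKM + 1) scale, on which 1 is a doubling and which understates the change of low genes, and a member was counted as called when it was at least 2-fold apart on this scale.

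Across the set, the levels lay higher in pluripotent cells than in fibroblasts for most members. From D0 to D16S+, 5 of the 10 were at least 2-fold higher (Kdm3a, Kdm4c, Kdm5b, Kdm3b and Kdm1a) and 0 at least 2-fold lower, beside 20.0% of kept genes higher and 20.9% lower, and the median difference of the members was 1.06 beside 0.05 over all kept genes. From D0 to iPSCs, 6 were at least 2-fold higher (the same 5 and Kdm2b) and 0 lower, beside 18.7% and 21.6% of kept genes, with a median of 1.38 beside 0.03. From D0 to mESCs, 7 were at least 2-fold higher (those 6 and Kdm4b) and 0 lower, beside 20.7% and 21.9%, with a median of 1.42 beside 0.03. From D0 to D16S- only Kdm3a was at least 2-fold higher and 0 were lower, beside 12.8% and 11.4% of kept genes, and the median was 0.26 beside 0.00. These comparisons share D0 as their first library, so they are not independent of one another. The summed level of the 10 genes was 151 FPKM in D0, 301 in D16S+, 328 in both iPSCs and mESCs, and 174 in D16S-.

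**Figure D1:**
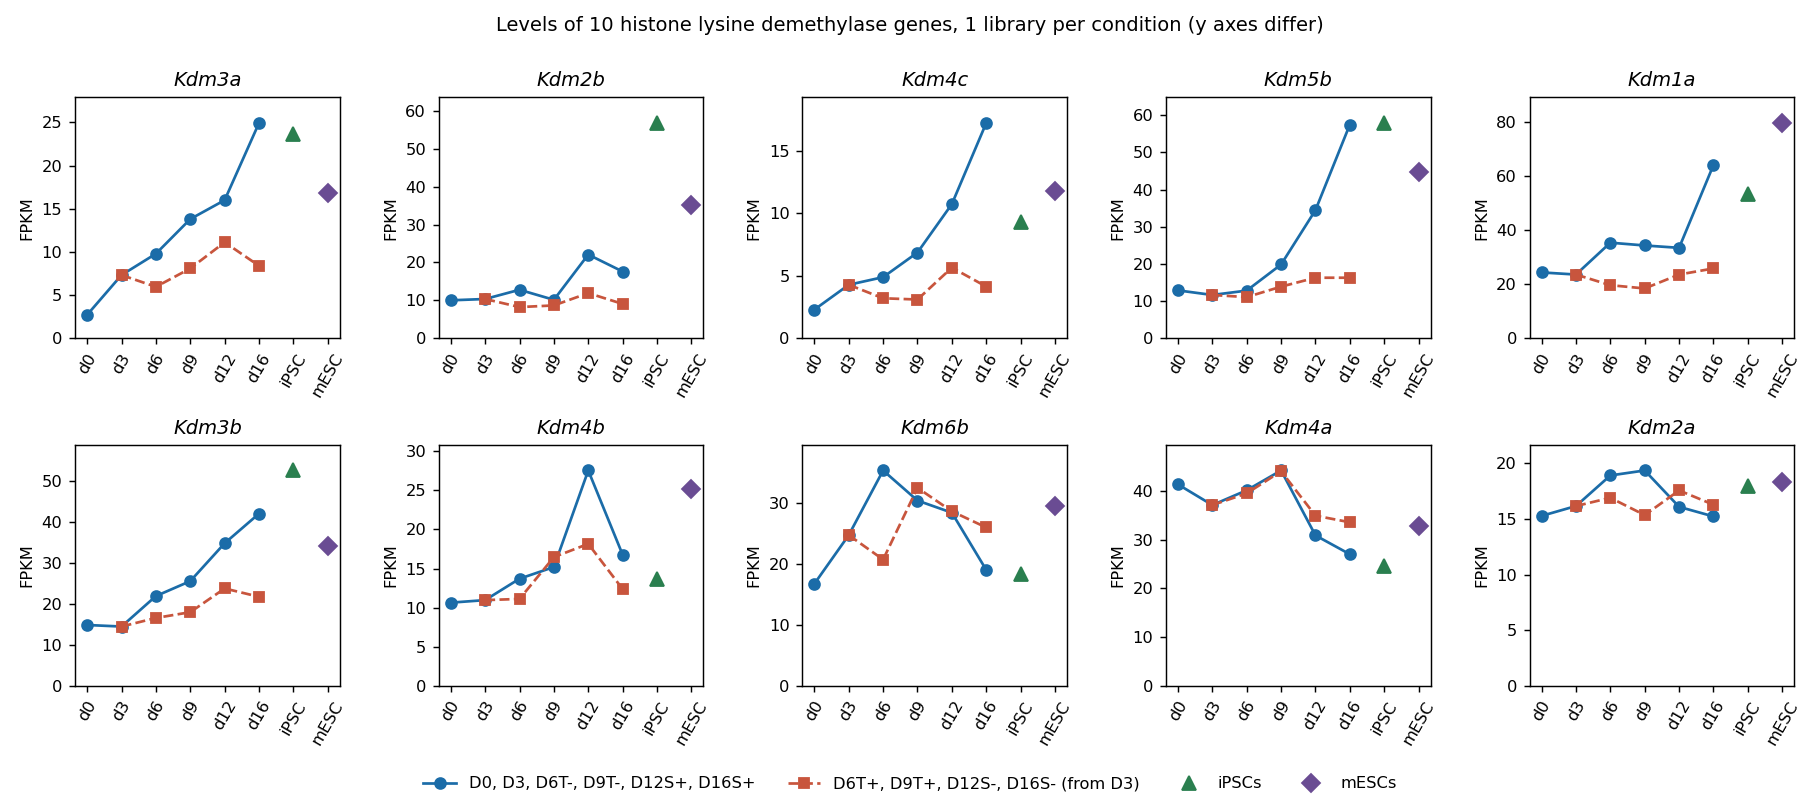
FPKM of each demethylase gene (y axis, a separate scale from 0 for each panel) by day of reprogramming and in iPSCs and mESCs (x axis), 1 point per library and no error bars. Circles join D0, D3 and the Thy-1- or SSEA-1+ fractions, squares join D3 and the Thy-1+ or SSEA-1- fractions, and panels run from the widest range, Kdm3a (2.81 on the log2 scale), to the narrowest, Kdm2a (0.33).

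The H3K9 enzymes of the Kdm3 pair had different starting levels. Kdm3a (chromosome 6, 71538968 to 71582899, minus strand in the GENCODE M1 annotation of mm9) was at 2.71 FPKM in D0, 7.32 in D3, 9.78 in D6T-, 13.8 in D9T-, 16.0 in D12S+ and 24.9 in D16S+. It was at 23.6 FPKM in iPSCs and 16.8 in mESCs, and at 5.95 FPKM in D6T+, 8.08 in D9T+, 11.1 in D12S- and 8.39 in D16S- in the opposite fractions. The level was higher in each successive library from D0 to D16S+, and D0 was the lowest of all 12 libraries. D0 to D3 was the widest early step, 1.17 on the log2 scale, and Kdm3a was the only member past 2-fold there, beside 5.76% of kept genes higher and 8.67% lower. From D0 the difference was 2.81 to D16S+, 2.73 to iPSCs, 2.26 to mESCs and 1.34 to D16S-, so this gene was also above fibroblasts in the fraction that did not gain SSEA-1. Its range over the libraries was wider than that of 81.4% of kept genes.

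Kdm3b, its paralog, was at 14.8 FPKM in D0, 14.4 in D3, 21.9 in D6T-, 25.5 in D9T-, 34.7 in D12S+ and 42.0 in D16S+. It was at 52.5 FPKM in iPSCs and 34.1 in mESCs, and at 16.5 FPKM in D6T+, 17.9 in D9T+, 23.7 in D12S- and 21.7 in D16S-. Kdm3b thus began higher than Kdm3a and differed by less, 1.44 from D0 to D16S+ and 1.76 from D0 to iPSCs. The ratio of Kdm3b to Kdm3a, both per transcript length, was 5.47 in D0, 1.97 in D3 and 1.68 in D16S+, so the pair was closest in level in D16S+. A lincRNA on the opposite strand, Gm17557, shares 53 exon bases with Kdm3b. Kdm3a is known as a gene induced under low oxygen. Of 14 hypoxia response genes, 11 were at least 2-fold higher and 0 lower in D16S- than in D0. Among kept genes the shares were 12.8% and 11.4%. In D16S+ 7 were higher and 1 lower, beside 20.0% and 20.9%. In iPSCs 4 were higher and 6 lower, beside 18.7% and 21.6%, with a median of -0.26 beside 0.03. In mESCs 8 were higher and 0 lower, beside 20.7% and 21.9%. The 14 genes summed to 365 FPKM in D0, 281 in D3, 1044 in D16S+, 1694 in D16S-, 584 in iPSCs and 1190 in mESCs. Their part in the Kdm3a levels was not tested.

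The Kdm4 trio, which act on trimethylated H3K9 and H3K36, moved apart from each other. Kdm4a (chromosome 4, 117809562 to 117852648, minus strand) was at 41.4 FPKM in D0, 37.1 in D3, 40.2 in D6T-, 44.3 in D9T-, 30.9 in D12S+ and 27.0 in D16S+. It was at 24.5 FPKM in iPSCs and 32.9 in mESCs, and at 39.6 FPKM in D6T+, 44.1 in D9T+, 35.0 in D12S- and 33.6 in D16S-. This was the leading member of the set in D0, D3, all Thy-1-sorted fractions, D12S- and D16S-, and its lowest level was in iPSCs. It was the one member lower than D0 in all of D16S+, iPSCs and mESCs, by -0.60, -0.73 and -0.32 on the log2 scale, none of which is 2-fold.

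Kdm4c (chromosome 4, 73888401 to 74051764, plus strand) was at 2.28 FPKM in D0, 4.27 in D3, 4.88 in D6T-, 6.85 in D9T-, 10.7 in D12S+ and 17.2 in D16S+. It was at 9.29 FPKM in iPSCs and 11.7 in mESCs, and at 3.19 FPKM in D6T+, 3.09 in D9T+, 5.64 in D12S- and 4.13 in D16S-. Like Kdm3a, it was higher in each successive library from D0 to D16S+ and lowest in D0. The difference from D0 was 2.47 in D16S+, 1.65 in iPSCs, 1.96 in mESCs and 0.64 in D16S-. D16S+ was therefore above both end points, and the step from D16S+ to iPSCs was -0.82. Even so, Kdm4c was the lowest of the 10 members in every library but D16S+, where it ranked eighth.

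Kdm4b (chromosome 17, 56465485 to 56542293, plus strand) was at 10.6 FPKM in D0, 11.0 in D3, 13.7 in D6T-, 15.2 in D9T-, 27.6 in D12S+ and 16.8 in D16S+. It was at 13.7 FPKM in iPSCs and 25.1 in mESCs, and at 11.1 FPKM in D6T+, 16.5 in D9T+, 18.2 in D12S- and 12.4 in D16S-. Its highest level was in D12S+, 0.82 above D9T- on the log2 scale, the step from there to D16S+ was -0.68, and iPSCs and mESCs differed in it more than in any other member, by -0.83 (iPSCs minus mESCs). Kdm4b is also known as a gene induced under low oxygen, and the summed hypoxia response genes were at 1686 FPKM in D12S+ and 1607 in D12S-, above the 1044 of D16S+ and near the 1694 of D16S-. Their part in the Kdm4b levels was not tested.

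The make-up of the trio differed between cell states more than its sum. The 3 genes together were at 54.3 FPKM in D0, 69.2 in D12S+, 61.0 in D16S+, 50.1 in D16S-, 47.5 in iPSCs and 69.7 in mESCs. Kdm4a made up 76.2% of this sum in D0, 67.1% in D16S-, 44.3% in D16S+, 51.6% in iPSCs and 47.1% in mESCs. The share of Kdm4c was 4.20% in D0, 8.23% in D16S-, 28.2% in D16S+, 19.5% in iPSCs and 16.8% in mESCs. Fibroblasts thus held mostly Kdm4a mRNA of this trio, and D16S+ held the 3 in a more even mix.

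**Figure D2:**
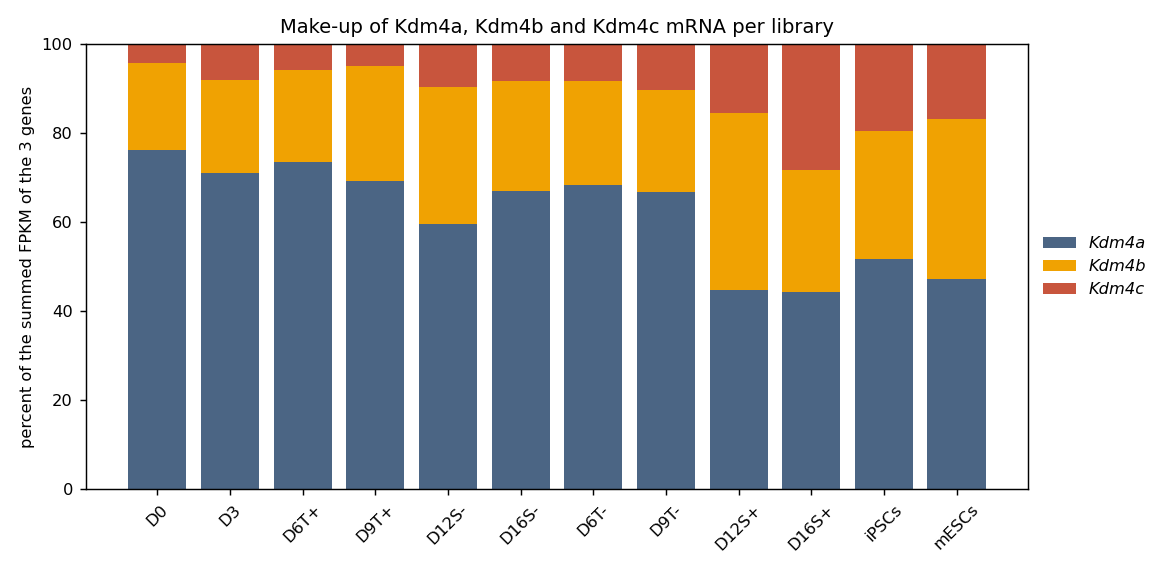
Stacked bars give the percent of the summed FPKM of Kdm4a, Kdm4b and Kdm4c (y axis, 0 to 100) that each gene made up in each of the 12 libraries (x axis), 1 library per bar. Kdm4a took 76.2% in D0 and 44.3% in D16S+, and Kdm4c 4.20% and 28.2%.

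The H3K4 enzymes are Kdm1a and Kdm5b. Kdm1a (chromosome 4, 136106455 to 136158638, minus strand) was at 24.3 FPKM in D0, 23.5 in D3, 35.3 in D6T-, 34.3 in D9T-, 33.4 in D12S+ and 64.0 in D16S+. It was at 53.4 FPKM in iPSCs and 79.6 in mESCs, and at 19.6 FPKM in D6T+, 18.4 in D9T+, 23.5 in D12S- and 25.8 in D16S-. The Thy-1- and SSEA-1+ libraries lay at 33.4 to 64.0 FPKM and the Thy-1+ and SSEA-1- libraries at 18.4 to 25.8 FPKM. These 4 against 4 libraries thus did not overlap. That held for 1 of the 10 members, this one, beside 8.49% of kept genes, a count near that background. The level stepped up by 0.57 from D3 to D6T-, stayed within 33.4 to 35.3 FPKM to D12S+, and was 0.92 higher in D16S+. mESCs held the highest level of any member in any library.

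Kdm5b (chromosome 1, 136456748 to 136529454, plus strand) was at 12.9 FPKM in D0, 11.6 in D3, 12.8 in D6T-, 19.8 in D9T-, 34.5 in D12S+ and 57.5 in D16S+. It was at 57.9 FPKM in iPSCs and 44.7 in mESCs, and at 11.1 FPKM in D6T+, 13.9 in D9T+, 16.3 in D12S- and 16.3 in D16S-. Unlike Kdm1a it was level from D0 to D6T-, and the steps from D6T- to D9T-, D12S+ and D16S+ were then 0.59, 0.77 and 0.72. D16S+ and iPSCs were 2.08 and 2.09 above D0, and D16S- 0.32 above it. In D12S+, D16S+ and mESCs Kdm5b ranked second of the 10 members and in iPSCs first, against sixth in D0.

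The H3K36 pair of the Kdm2 family divided into a variable and a steady gene. Kdm2b (chromosome 5, 123320677 to 123465089, minus strand) was at 10.0 FPKM in D0, 10.4 in D3, 12.8 in D6T-, 10.1 in D9T-, 22.1 in D12S+ and 17.6 in D16S+. It was at 56.9 FPKM in iPSCs and 35.1 in mESCs, and at 8.22 FPKM in D6T+, 8.65 in D9T+, 11.9 in D12S- and 9.06 in D16S-. The route held 2 separate steps, 1.05 from D9T- to D12S+ and 1.64 from D16S+ to iPSCs, with D16S+ below D12S+ between them. iPSCs were 2.39 above D0 and 0.68 above mESCs, while D16S+ was 0.76 above D0. Kdm2b is made as a long form and as a short form that starts further in and lacks the JmjC domain, and a gene-level FPKM does not separate them. An antisense lincRNA, A930024E05Rik, shares 199 exon bases with Kdm2b. The labels name a stranded kit and the study's methods another TruSeq kit, and the strand setting of cuffdiff is not given in the sources used here, so reads of the pair may not be separated.

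Kdm2a (chromosome 19, 4316170 to 4398266, minus strand) was at 15.3 FPKM in D0, 16.2 in D3, 18.9 in D6T-, 19.4 in D9T-, 16.1 in D12S+ and 15.2 in D16S+. It was at 18.0 FPKM in iPSCs and 18.4 in mESCs, and at 16.9 FPKM in D6T+, 15.4 in D9T+, 17.6 in D12S- and 16.3 in D16S-. All 12 values lay between 15.2 and 19.4 FPKM, a range of 0.33 on the log2 scale beside a median of 1.57 over all kept genes. The ratio of Kdm2b to Kdm2a was 0.655 in D0, 1.16 in D16S+ and 3.16 in iPSCs, so the order of the pair differed between fibroblasts and pluripotent cells.

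Kdm6b (chromosome 11, 69212010 to 69227177, minus strand), the H3K27 demethylase that is also known as a gene induced by inflammatory signals, was at 16.7 FPKM in D0, 24.7 in D3, 35.3 in D6T-, 30.4 in D9T-, 28.4 in D12S+ and 19.0 in D16S+. It was at 18.3 FPKM in iPSCs and 29.5 in mESCs, and at 20.7 FPKM in D6T+, 32.5 in D9T+, 28.6 in D12S- and 26.0 in D16S-. Its highest level was in D6T-, in the middle of the time course, and D0 was lowest, with D16S+ and iPSCs only 0.17 and 0.12 above D0. Of 11 kept inflammatory response genes, 0 were at least 2-fold higher and 8 lower in D6T- than in D6T+. Among kept genes the shares were 2.93% and 9.47%. In D16S+ against D16S-, 0 were higher and 10 lower, beside 11.8% and 15.2%. The 12 listed inflammatory genes summed to 1585 FPKM in D0, 1409 in D6T+, 338.5 in D6T-, 919 in D16S- and 190 in D16S+. Their part in the Kdm6b levels was not tested. A processed transcript on the opposite strand, 1700064E03Rik, shares 286 exon bases with Kdm6b.

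Sorted fractions of the same day were compared next, since they share day, the viruses used and medium, and do not use D0. On day 6 all 10 members were higher in D6T- than in D6T+, beside 50.3% of kept genes higher by any amount, with a median of 0.44 beside 0.00, and 0 members were past 2-fold in either direction, beside 2.93% of kept genes higher and 9.47% lower. On day 9, 8 were higher in D9T- (51.5% of kept genes) and 0 were past 2-fold, beside 1.81% higher and 6.45% lower, with a median of 0.40 beside 0.02. On day 12, 7 were higher in D12S+ (48.3%) and Kdm5b was past 2-fold at 1.04, beside 4.79% higher and 3.03% lower, with a median of 0.51 beside -0.01. On day 16, 7 were higher in D16S+ (48.3%) and 4 were past 2-fold, Kdm4c at 1.83, Kdm5b at 1.76, Kdm3a at 1.47 and Kdm1a at 1.28, beside 11.8% higher and 15.2% lower, with a median of 0.90 beside -0.02. With the libraries scaled to the same total FPKM, Kdm6b turned to 0.02 on day 9 and 0.03 on day 12 and Kdm2a to 0.02 on day 16, so 1 more member was higher on each of these days.

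Of the members, 6 were above the opposite fraction in D6T-, D9T-, D12S+ and D16S+ alike, namely Kdm1a, Kdm2b, Kdm3a, Kdm3b, Kdm4c and Kdm5b, beside 23.2% of kept genes (3287 genes). Kdm1a showed the difference early, 0.82 on day 6 and 0.86 on day 9, whereas Kdm5b went from 0.20 on day 6 to 1.76 on day 16. Kdm2a and Kdm4a lay within 0.32 of 0 on each day. The difference of Kdm6b was 0.74 on day 6, near 0 on days 9 and 12 (-0.09 and -0.01) and -0.43 on day 16.

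The same fractions differed in other ways. Pou5f1, whose value includes reads of the retrovirus, was at 587 FPKM in D6T+ and 1935 in D6T-. On day 9 it was at 1617 FPKM in D9T+ and 2769 in D9T-. On day 12 it was at 2737 FPKM in D12S- and 2161 in D12S+. On day 16 it was at 2384 FPKM in D16S- and 1157 in D16S+. Its part in the demethylase differences was not tested. Of 10 proliferation genes, all were above the opposite fraction in D6T-, D9T-, D12S+ and D16S+, with medians of 0.65, 0.68, 1.13 and 2.07 on days 6, 9, 12 and 16, and their summed level was 824 FPKM in D16S+ and 212 in D16S-. From D0 to D16S-, 0 of them were at least 2-fold higher and 3 lower, beside 12.8% and 11.4% of kept genes. Their part in the demethylase differences was not tested. The sum of 9 leukocyte markers was 194 FPKM in D16S- and 89.7 in D16S+, where Ptprc was listed at 0, and that of 8 epithelial markers was 1549 and 1004. Their part was not tested either.

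**Figure D3:**
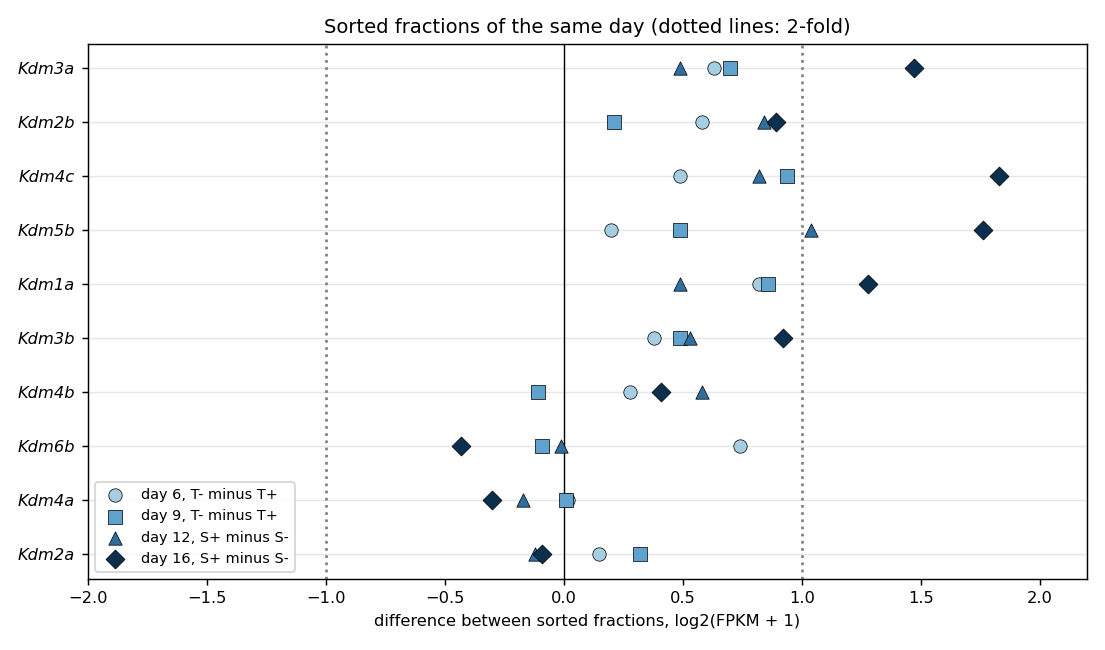
Difference between the sorted fractions of 1 day in log2(FPKM + 1) (x axis) for each demethylase gene (y axis), as D6T- minus D6T+ (circles), D9T- minus D9T+ (squares), D12S+ minus D12S- (triangles) and D16S+ minus D16S- (diamonds), 1 library per fraction. Dotted lines mark 2-fold, which Kdm4c, Kdm5b, Kdm3a and Kdm1a passed on day 16 and Kdm5b on day 12.

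The end points were compared with each other. Of the 10 genes, 0 were at least 2-fold higher or lower in iPSCs, beside 6.79% of kept genes higher and 7.41% lower, a count near that background, and the median difference (iPSCs minus mESCs) was -0.17 beside -0.01. Kdm2b (0.68), Kdm3b (0.61), Kdm3a (0.47) and Kdm5b (0.37) were higher in iPSCs. Kdm4b (-0.83), Kdm6b (-0.66), Kdm1a (-0.57), Kdm4a (-0.41), Kdm4c (-0.31) and Kdm2a (-0.03) were lower.

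**Figure D4:**
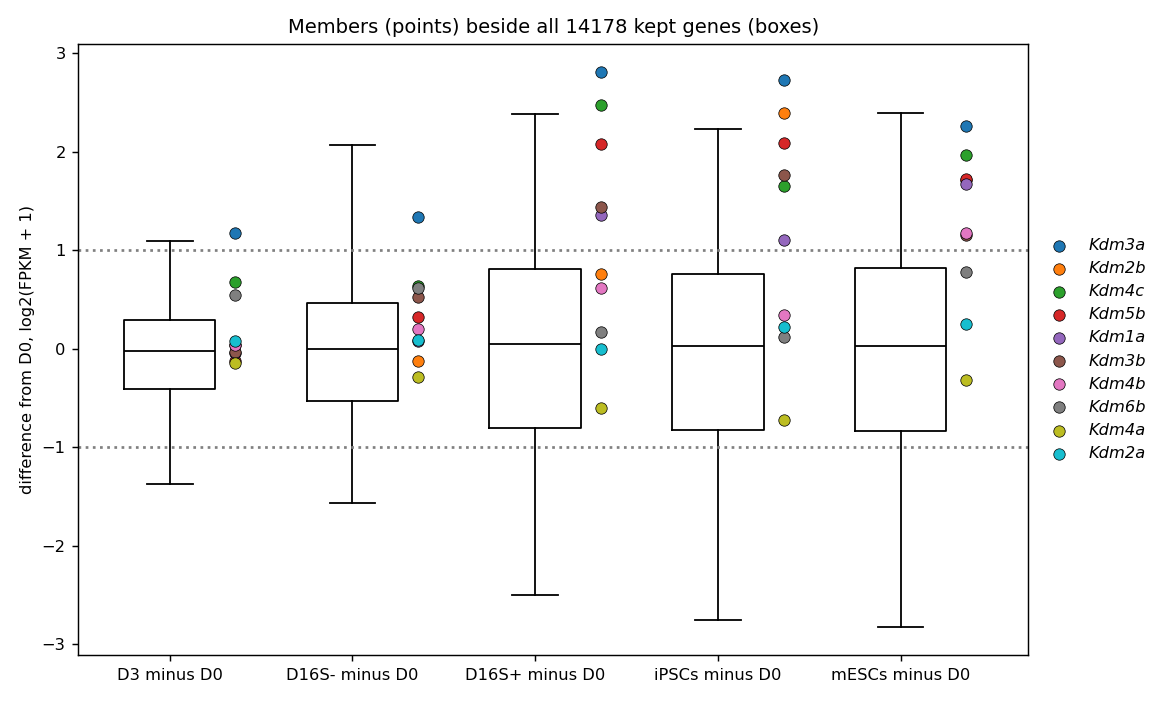
Difference from D0 in log2(FPKM + 1) (y axis) for 5 libraries (x axis). Coloured points are the 10 demethylase genes, and each box spans the middle 50% of the 14178 kept genes with its line at the median and whiskers from the 5th to the 95th percentile, and dotted lines mark 2-fold. Kdm3a sits highest in all 5 columns, from 1.17 in D3 to 2.81 in D16S+, and Kdm4a lowest.

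Likeness between profiles was measured as the root mean square difference of log2(FPKM + 1) over the 12 libraries after each gene was centred on its own mean, so that 0 is an identical shape. Among the members, the closest pairs were Kdm2a and Kdm4a (0.267), which are both narrow in range, and Kdm3a and Kdm4c (0.289), which both ran upward to D16S+. In the pool of 11509 genes that were compared, those nearest to Kdm3a were Fam60a (0.165), Sp1 (0.233) and Zfp961 (0.236). Fam60a was at 0.884 FPKM in D0, 2.36 in D3 and 11.7 in D16S+. Those nearest to Kdm4c were Ubr7 (0.196), Ranbp17 (0.197) and Esco2 (0.218), and those nearest to Kdm2b were Exosc5 (0.187), Eed (0.195) and Smpd4 (0.202). Eed, a core subunit of the Polycomb complex that methylates H3K27, was at 8.19 FPKM in D0, 19.5 in D16S+, 42.6 in iPSCs and 27.9 in mESCs.

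The remaining demethylase genes of the mouse were read from a list of 15, of which 13 were kept. From D0 to D16S+, 5 were at least 2-fold higher and 1 lower, beside the 20.0% and 20.9% of kept genes, with a median of 0.92 beside 0.05. The H3K9 family gene Jmjd1c (1.97), the H3K27 demethylase Kdm6a (1.90) and the H3K4 demethylase Kdm5a (1.76) were furthest up, and Phf2, a JmjC protein linked to H3K9, was furthest down (-1.60). Kdm6a was at 1.05 FPKM in D0, 6.65 in D16S+ and 5.27 in iPSCs, while Kdm6b was only 0.17 higher in D16S+ than in D0. From D0 to iPSCs, 4 were at least 2-fold higher and 1 lower, beside 18.7% and 21.6%, with a median of 0.77 beside 0.03. From D0 to D16S-, 2 were higher and 0 lower, beside 12.8% and 11.4%, with a median of 0.53 beside 0.00. All 13 were higher in D6T- than in D6T+ by some amount, beside 50.3% of kept genes, with 0 past 2-fold and a median of 0.36 beside 0.00. Against mESCs, 2 of the 13 were at least 2-fold higher in iPSCs and 0 lower, beside 6.79% and 7.41% of kept genes. They were Jmjd1c (2.11) and Kdm5d (1.08), while 0 of the 10 members were past 2-fold there.

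The partners of the demethylases were described in the same way. Of 8 partners of Kdm1a in the CoREST complex, 1 was at least 2-fold higher in D16S+ than in D0 and 1 lower. Among kept genes the shares were 20.0% and 20.9%, so these counts were not above the background. The higher one was the corepressor Rcor2 (1.90) and the lower one Hmg20b (-1.02). Rcor2 was at 18.6 FPKM in D0, 39.8 in D6T-, 72.2 in D16S+, 163 in iPSCs, 137 in mESCs and 23.5 in D16S-. Like Kdm1a, it was 1.58 higher in D16S+ than in D16S-, whereas its paralogs Rcor1 and Rcor3 were not past 2-fold there. Of 9 partners of Kdm2b in the Polycomb complex PRC1.1, 4 were at least 2-fold higher in iPSCs than in D0 and 1 lower. Among kept genes the shares were 18.7% and 21.6%. Rybp (2.17), Usp7 (1.99) and Bcor (1.59) led, and Yaf2 (-1.84), the paralog of Rybp, was the lower one. From D0 to D16S+, 4 were higher and 2 lower (Yaf2 at -1.86 and Bcorl1 at -1.43), beside 20.0% and 20.9%.

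The methyltransferases that write the same marks were also read. For H3K9, Setdb1 was 1.36 and Suv39h2 1.00 higher in D16S+ than in D0 and Suv39h1 was lower (-1.45), out of 6 genes with a median of 0.34. For H3K27, Ezh1 and Ezh2 were 1.67 and 1.61 higher. Of 6 H3K4 methyltransferases, Kmt2c alone was at least 2-fold higher (1.71) and 0 were lower, with a median of 0.35. Of 6 H3K36 methyltransferases, 0 were at least 2-fold higher and Whsc1 was lower (-1.13), with a median of -0.70. These lists are small, and their counts are read beside the 20.0% higher and 20.9% lower among all kept genes in that comparison.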

How the data were processed

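TruSeq libraries of polyA RNA, stranded per the labels, were made from 12 mouse samples. The authors mapped the reads to mm9 with STAR, removed reads with several loci and ran cuffdiff per gene. What they deposited is an FPKM per gene and library, with the ends of cuffdiff's interval around it. Versions and the gene annotation are not given in the sources used here. Genes with near-identical copies lose signal when reads of several loci are dropped. The intervals are modelled from 1 library and hold no biological spread. Absolute depth is unknown, and relative depth was read from the steps between FPKM values of genes under 0.5 FPKM. A further 12 columns of status words were not used.

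Columns were matched to samples by day and sorting sign in the titles. Levels were compared as log2(FPKM + 1) over genes with at least 1 FPKM in at least 1 library, for 9 comparisons, with no test since each condition had 1 library. Differences from D0 to mESCs are given as description. Named genes are the 10 members, list genes at least 2-fold apart (up to 3 per direction), the 3 genes nearest in profile to each of the 3 members with the widest range, and Pou5f1, Thy1 and Nanog. A gene whose values illustrate one of these was named after its values were seen (Rcor1, Rcor3, Ptprc). The members and lists were chosen with earlier results of these data known. Positions are from GENCODE M1 on NCBIM37 (1-based). Alternatives were a pseudocount of 0.1, scaling to the same total FPKM or by the median of ratios, no filter or one of 5 FPKM, and folds of 1.5 and 4. Functions were tested on simulated data. Python 3.11.15, pandas 2.3.3, numpy 2.4.6 and matplotlib 3.10.9 were used.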

Additional observations from a re-analysis of the deposited data

Results flagged for a closer look

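Kdm6b differed in direction between the days. It was 0.74 higher in D6T- than in D6T+ on day 6 (35.3 against 20.7 FPKM) and lower in D16S+ than in D16S- on day 16, at -0.43 (19.0 against 26.0 FPKM), a gap of 1.17 on the log2 scale between the 2 differences. Each fraction had 1 library, and the gap was not tested.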

How the results depend on the processing

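All values rest on 1 library per condition, so no replicate could be left out. No paired analysis was possible because each condition had 1 library, so the groups compared share at most 1 replicate number. With a pseudocount of 0.1, 1 member in place of 0 was at least 2-fold apart on day 9, beside 15.7% of kept genes. The count was also 1 with the libraries scaled to the same total FPKM, beside 8.34%. At a fold of 1.5 the members called were 2 from D0 to D3 (beside 31.4% of kept genes), 8 from D0 to D16S+ (7 higher and 1 lower, 62.2%), 3 from D0 to D16S- (44.3%), 4 from mESCs to iPSCs (2 higher and 2 lower, 32.5%), and 3 each on days 6, 9 and 12 (28.9%, 22.8% and 23.0%). Several of these counts are near or below the background. At a fold of 4 they were 3 from D0 to D16S+ (15.0%) and from D0 to iPSCs (15.4%), and 0 from D0 to D3 (3.99%), from D0 to D16S- (8.20%) and on days 12 (0.987%) and 16 (6.63%). With D3 in place of D0, a choice made after seeing the data, 0 members were called to D16S-. The other 75 of the 90 planned recomputations of counts and medians stayed within 1.5 times the count or within the margin for medians, as did the other 7 of the 8 added ones.

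Scaling to the same total FPKM shifted the median of all kept genes from -0.02 to 0.12 (D0 to D3), from 0.05 to 0.35 (D0 to D16S+), from 0.00 to 0.19 (D0 to D16S-) and from 0.03 to 0.18 (D0 to iPSCs), and the share of called genes that were higher from 39.9% to 56.5%, from 48.9% to 65.6% and from 52.9% to 68.2% in the first 3. It turned the sign of small differences, in D0 to D3 for Kdm1a (0.21), Kdm3b (0.22), Kdm4a (0.11) and Kdm5b (0.11), in D0 to D16S+ for Kdm2a (0.39), in D0 to D16S- for Kdm2b (0.14) and Kdm4a (0.00), in mESCs to iPSCs for Kdm2a (0.08), on days 9 and 12 for Kdm6b (0.02 and 0.03) and on day 16 for Kdm2a (0.02), so that 1 more member was higher in D9T-, D12S+ and D16S+. With the median of ratios, Kdm2a turned in D0 to D16S+ (0.01) and Kdm4a was at 0.00 on day 9.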

Other observations

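The JmjC enzymes use 2-oxoglutarate and are helped by ascorbate, which was added to FF medium. Of 10 genes for 2-oxoglutarate supply and ascorbate uptake, 1 was at least 2-fold higher in D16S+ than in D0 and 0 lower. Among kept genes the shares were 20.0% and 20.9%, so the count was below the background. The median of the 10 genes was 0.44 beside 0.05. The 1 higher gene was Slc23a1, a transporter of ascorbate. It was at 0.0160 FPKM in D0, 1.07 in D9T-, 7.57 in D12S+, 6.02 in D16S+, 1.61 in iPSCs and 0.264 in mESCs. It was 2.15 higher in D12S+ than in D12S- and 1.46 higher in D16S+ than in D16S-. The other ascorbate transporter gene, Slc23a2, was 1.34 higher in D16S- than in D0 and was at 15.4 FPKM there, above its 7.93 FPKM in D16S+.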
